A study of Sus scrofa domesticus with 6 samples.

Results

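Small intestine of minipigs whose abdomen had been irradiated was compared with small intestine of unirradiated minipigs, gene by gene across the whole transcriptome. All animals were Göttingen minipigs, a small breed used as a large-animal model, with a wild type genotype and an age of 6 months. The 2 IR animals had received 15 Gy of cobalt-60 gamma rays to the abdomen and no drug, the 2 control animals neither radiation nor drug, and tissue was taken on day 14. A further 2 animals (IR_Pra), irradiated in the same way and given 40 mg of pravastatin per day for 2 weeks, entered the statistical fit, where they help to estimate the spread, and are not described. Of 30376 rows of the deposited gene table, 30352 carried a gene symbol, and 18197 of these passed a filter on low counts and were tested. The labels say small intestine without naming a segment or layer, so the tissue piece of each library may hold any part of the bowel wall.

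The mucosa of the small intestine is renewed from stem cells at the base of the crypts, whose daughters divide, move up the villus and become absorptive enterocytes, goblet, endocrine or tuft cells. Dividing crypt cells and lymphocytes are the cells of the bowel that ionizing radiation kills most readily. Lymphoid follicles lie in the wall below a specialized epithelium, and the lamina propria between the crypts holds macrophages, plasma cells, fibroblasts and small vessels, with smooth muscle and nerve plexuses outside it. In bulk tissue, fewer cells of a type and less RNA per cell cannot be told apart.

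Values below are CPM, read counts relative to library size after trimmed-mean scaling, and the 4 values of a gene are always given in the order control 1, control 2, IR 1, IR 2. The libraries held between 57905213 and 73975174 counts in these 2 groups. Each IR library was set against the range of both controls, and a gene was counted as above or below the range when it lay at least 2-fold beyond the nearer control after 0.5 CPM was added. With this rule 1631 genes were above and 1950 below the range in IR 1, and 2630 were above and 2347 below in IR 2. The controls differed from each other by 2-fold or more at 1004 genes, and the IR libraries at 4348.

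Both IR libraries lay above the control range at 1004 genes (5.52% of those tested) and below it at 912 (5.01%). A much larger number was found in one library only. IR 1 alone was above at 548 genes and below at 1015, IR 2 alone was above at 1603 and below at 1356, and the libraries lay on opposite sides of the range at 102 genes. The plot of both IR libraries against the control mean shows these classes. Library IR 1 had a trend with transcript length that IR 2 lacked. When genes were split into 10 equal groups by transcript length, the shortest group had a median log2 ratio to the control mean of 0.53 in IR 1 and 0.04 in IR 2, and the longest group had -0.58 and -0.13. The shared class above the range had a median transcript length of 2254.5 nt, and that below it 4809 nt, against 3112 nt over all genes tested. Once the trend was removed, 779 of the 1004 shared genes above the range (77.6%) and 678 of the 912 below (74.3%) kept their class.

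**Figure D1:**
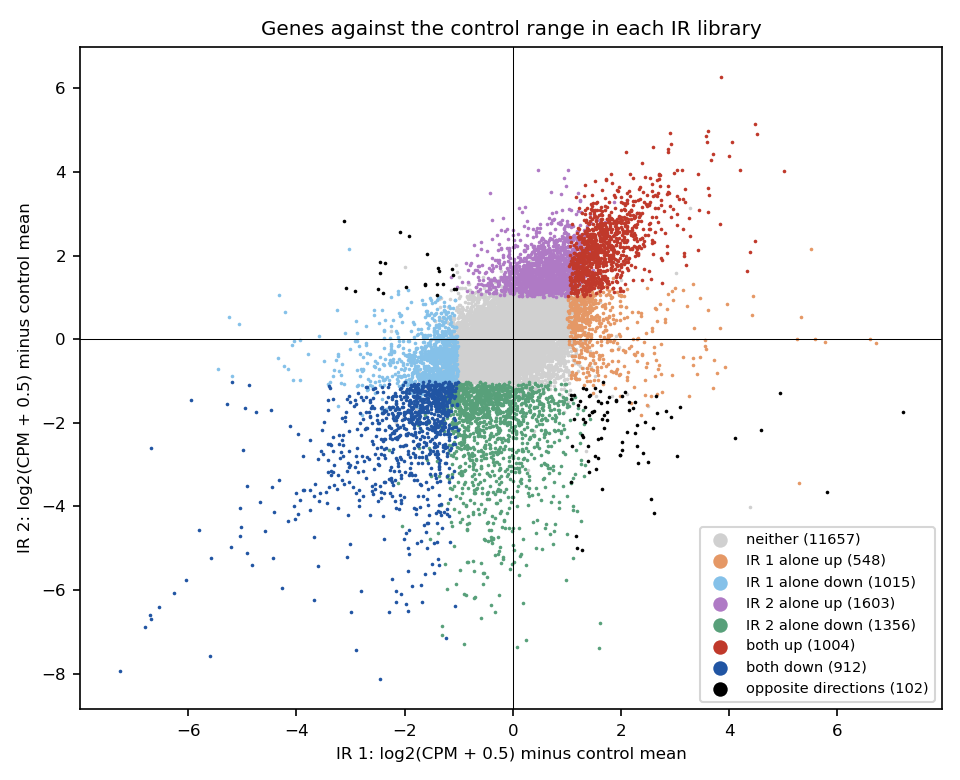
Each point is one of 18197 genes, with the log2 difference of IR 1 from the control mean on the horizontal axis and that of IR 2 on the vertical axis, coloured by class. The 1004 genes above and 912 below the control range in both libraries fill the upper right and lower left, and 102 genes lie on opposite sides.

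**Figure D2:**
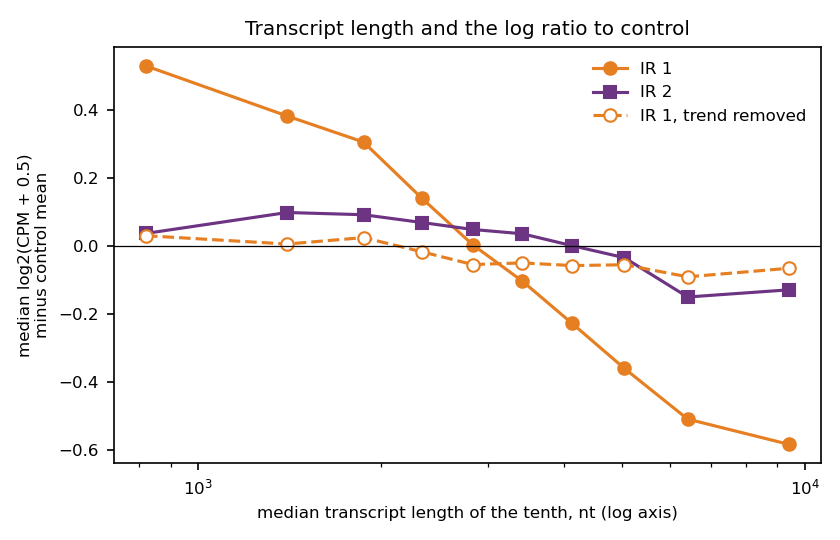
Genes were split into 10 equal groups by transcript length (log axis, nt), and the median log2 difference from the control mean is drawn for each IR library. IR 1 runs from 0.53 to -0.58 and IR 2 stays between 0.10 and -0.15, and the dashed line shows IR 1 after the trend was removed.

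By the quasi-likelihood test of edgeR with Benjamini-Hochberg adjustment, 1103 of the 18197 genes (6.06%) passed an adjusted p of 0.05. Of these 616 (3.39%) were higher and 487 (2.68%) lower in IR. The words rose and fell are used below for genes that passed. The values of the 2 groups did not overlap at 59.8% of all genes tested and at all 1103 that passed. Most of the calls, 1044 of 1103, fell in the shared classes, 586 above the range and 458 below it. Genes apart in the IR libraries seldom passed, since the test asks for a difference larger than the spread within groups. The test had 3 residual degrees of freedom, and the calls did not hold without one of the controls or without one of the IR_Pra libraries. All 1103 genes kept their sign in these fits, as they had to, since their groups did not overlap. Fits without IR 1 or without IR 2 hold 1 IR animal. The spread between the IR animals does not enter them, so their calls are not described. Over all genes tested, the median log2 fold change was 0.03, and the median log2 difference from the control mean was -0.03 in IR 1 and 0.01 in IR 2. An unadjusted p under 0.05 was found at 30.2% of all genes tested. These serve as the background for each gene list below, and a list's count at an unadjusted p is to be read against that share.

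Several defining genes of B cells and of lymphoid follicles fell to almost nothing in both IR libraries. In the B cell list 8 of 20 tested genes fell and none rose, 15 lay below the control range in both libraries, and the median difference from the control mean was -2.39 in IR 1 and -2.42 in IR 2. PAX5, the master regulator of B cells, had 73.1, 78.5, 0.186 and 0.145 CPM (log2 fold change -8.83 ± 0.56 SE, adjusted p = 0.0303). Both IR libraries were close to 0. CR1, a complement receptor of B cells and follicular dendritic cells, had 103, 52.9, 0.297 and 0.383 CPM (-7.83 ± 0.63, adjusted p = 0.0331), and MS4A1, the surface antigen CD20, had 52.1, 30.7, 0.111 and 0.251 CPM (-7.78 ± 0.69, adjusted p = 0.0344). FCER2, the low-affinity IgE receptor, fell as well (13.9, 5.95, 0.316 and 0.251 CPM). Among these 4 genes the controls differed by at most 2.33-fold, and every IR value was far below both.

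Germinal centre genes had 6 of 15 lower and none higher, with medians of -3.18 in IR 1 and -2.42 in IR 2. GCSAM, a signalling protein of germinal centre B cells, had 25.6, 19.2, 1.19 and 0.845 CPM (-4.46 ± 0.62, adjusted p = 0.0370). ELL3, a transcription elongation factor, had 61.1, 33.3, 0.0929 and 0.185 CPM, and FCAMR, a receptor for IgA and IgM, had 71.1, 37.5, 0 and 0.0396 CPM. GP2, the bacterial receptor of M cells in the epithelium over the follicles, had 180, 83.2, 0.297 and 0 CPM (-9.89 ± 1.46, adjusted p = 0.0370). GCSAM, ELL3, FCAMR and GP2 lay in the shared class below the range. GP2 was the only one of 10 genes of the M cell and follicle epithelium list that fell, and 2 rose, ANXA5 and AIF1 (43.0, 42.4, 118 and 119 CPM), both also made by other cells. The call of AIF1 ended with the length trend removed. ZP3 (18.1, 18.1, 0 and 0.0924 CPM) and IGFBPL1 (47.7, 28.9, 0.743 and 0.581 CPM), for which no role in these cells is given here, were also among the 10 genes that fell furthest. The smallest adjusted p of all genes, 0.0243, was shared by S100A2 and LOC110255225, a row typed as a constant region segment of an immunoglobulin or T cell receptor gene with no further name. It was chosen for mention after its values were seen. It had 59.5 and 44.2 CPM in control and 0 counts in both IR libraries, at least 2241-fold lower with a floor of 3 counts over the group. The 13 rows of this type that were tested went both ways, with 3 above the control range in both IR libraries and 4 below it. Under limma voom the calls of FCER2, FCAMR, ELL3, GP2 and ZP3 ended.

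In the T cell list 5 of 23 genes fell, and 7 lay below the control range in both libraries, with a further 6 below it in IR 2 alone. The median difference was -0.99 in IR 1 and -1.62 in IR 2. BCL11B, a transcription factor of T cell commitment, had 6.54, 5.54, 0.762 and 0.753 CPM (-2.99 ± 0.36, adjusted p = 0.0361), and CD3D, a CD3 chain, had 14.5, 12.4, 4.07 and 3.06 CPM (-1.92 ± 0.30, adjusted p = 0.0375). The signalling chain CD247 and the signalling protein THEMIS fell too, by 2.15 ± 0.42 and 2.44 ± 0.40 on the log2 scale. CD3E, another such chain, did not pass: it had 71.3, 45.5, 45.4 and 9.90 CPM, so that IR 1 was close to the lower control. Of 19 cytotoxic and NK cell genes only KLRK1, an activating receptor, fell (11.3, 10.02, 3.77 and 3.12 CPM, -1.63 ± 0.31, adjusted p = 0.0457). The call of THEMIS ended once the length trend was removed, and that of KLRK1 with library size as the only scaling.

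Plasma cell genes, from the antibody-secreting end of the B lineage, did not follow the B cell genes. Of 17, 2 rose and 1 fell, and the list median was -0.08 in each IR library. TNFRSF17, the receptor for plasma cell survival factors, rose from 5.96 and 7.92 to 21.0 and 24.9 CPM (1.73 ± 0.29, adjusted p = 0.0403), and the secretory oxidoreductase TXNDC5 rose from 161 and 166 to 390 and 500 CPM. JCHAIN, which joins polymeric antibodies, had 236, 483, 1100 and 1840 CPM and missed the threshold (2.03 ± 0.54, adjusted p = 0.0745). FCRL5, a receptor of mature B cells, fell from 19.8 and 11.5 to 2.67 and 3.18 CPM. With library size as the only scaling none of these 3 calls held, and those of TNFRSF17 and FCRL5 ended with the length trend removed. Among annotated immunoglobulin and T cell receptor V segments, 19 of 66 tested were above the control range in both IR libraries and 1 was below.

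In the epithelial identity list 2 of 20 genes fell, 3 lay below the range in both libraries and 13 in IR 2 alone. The list median was -0.445 in IR 1 and -2.455 in IR 2. HNF4G (chromosome 4, 60505388 to 60641052 on Sscrofa11.1), a nuclear receptor that maintains enterocyte differentiation, had 213, 193, 5.74 and 8.57 CPM (-4.82 ± 0.39, adjusted p = 0.0331). KLF5 (chromosome 11, 45370009 to 45386673), a zinc finger factor of proliferating crypt cells, had 147, 177, 14.5 and 10.2 CPM (-3.71 ± 0.30, adjusted p = 0.0331). The nearest IR and control values lay 22.5-fold apart for HNF4G and 10.1-fold apart for KLF5. The related receptor HNF4A had 231, 287, 108 and 59.5 CPM and missed the threshold (-1.63 ± 0.35, adjusted p = 0.0520). In contrast, the microvillus bundler VIL1 had 2183, 1906, 1308 and 122 CPM and the keratin KRT8 had 1793, 2507, 2520 and 627 CPM. For VIL1 and KRT8, IR 1 stayed within 2-fold of the controls and IR 2 lay far below them.

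Of 22 tight and adherens junction genes 4 fell and none rose, and 8 lay below the range in both libraries. The list median was -0.87 in IR 1 and -1.95 in IR 2. Desmosomes are the spot junctions that anchor keratin filaments between epithelial cells. The desmosomal cadherin DSC2 (chromosome 6, 114982259 to 115021332) had 199.9, 250.7, 13.2 and 10.9 CPM (-4.22 ± 0.36, adjusted p = 0.0331), and its partner DSG2 had 170.4, 171.0, 27.7 and 13.3 CPM (-3.06 ± 0.43, adjusted p = 0.0370). DSP, the plakin that links them to keratin, fell from 872 and 819 to 229 and 92.2 CPM (-2.40 ± 0.48, adjusted p = 0.0487), and F11R, a junctional adhesion molecule, from 103 and 105 to 23.3 and 13.5 CPM (-2.50 ± 0.32, adjusted p = 0.0370). JUP, the plakoglobin of the same junctions, had 393.5, 392.04, 257 and 235 CPM and did not pass (adjusted p = 0.137), and the claudin CLDN7 had 476, 493, 463 and 78.3 CPM. The laminin chain LAMA3 (70.0, 56.5, 11.2 and 4.53 CPM), which anchors epithelium to its basement membrane, fell as well, as did the growth factor receptor ERBB3 (790, 908, 175 and 65.6 CPM). LAMA3 was chosen after its values were seen.

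Several of these transcripts are long, so their values in IR 1 were also computed with the length trend removed. The log2 difference of IR 1 from the control mean moved from -5.03 to -4.59 for HNF4G, from -4.03 to -3.64 for DSC2 and from -2.60 to -2.21 for DSG2. For the short transcripts KLF5 and F11R it moved the other way, from -3.43 to -3.84 and from -2.14 to -2.66. All 5 kept their calls, and the calls of DSP, LAMA3 and ERBB3 ended.

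ATOH1, the factor that commits crypt cells to secretory fates, fell from 39.6 and 30.3 to 12.7 and 8.32 CPM (-1.73 ± 0.34, adjusted p = 0.0463). POU2F3, the master factor of tuft cells, fell from 6.25 and 7.83 to 0.520 and 0.726 CPM (-3.49 ± 0.54, adjusted p = 0.0370), and LRMP of the same list from 49.3 and 35.7 to 9.49 and 11.96 CPM. The endocrine factors PAX6 (1.99, 1.52, 0.111 and 0.224 CPM) and NEUROD1 (4.26, 4.67, 0.687 and 0.185 CPM) fell with them. CREB3L1, a factor of secretory capacity counted in the goblet list, rose from 28.6 and 24.0 to 60.8 and 58.2 CPM (1.18 ± 0.22, adjusted p = 0.0437), while the mucin MUC2 had 5524, 3890, 5740 and 483 CPM, near the controls in IR 1 and far below them in IR 2. Over whole lists, 2 of 17 tuft genes, 2 of 23 enteroendocrine genes and 1 of 18 goblet genes fell, and CREB3L1 was the only one of these 3 lists that rose. With library size as the only scaling the calls of LRMP, PAX6, NEUROD1 and CREB3L1 ended, as did that of NEUROD1 with the length trend removed.

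Of 33 growth factors and niche signals, 1 rose and none fell, against 3.39% higher over all genes. The call was RSPO1 (chromosome 6, 93664839 to 93690328), a secreted ligand that amplifies Wnt signalling, which maintains crypt stem cells. It rose from 2.58 and 3.41 to 21.0 and 30.2 CPM (3.10 ± 0.34, adjusted p = 0.0359). Its receptor LGR4 (chromosome 2, 32871837 to 32979150) fell from 92.1 and 103 to 18.1 and 17.7 CPM (-2.44 ± 0.31, adjusted p = 0.0370), and the Wnt receptor FZD5 from 121 and 146 to 25.1 and 9.93 CPM (-2.94 ± 0.51, adjusted p = 0.0410). LGR4 and FZD5 were chosen after their values were seen. LGR5, the receptor that marks crypt stem cells, was low everywhere, with 1.56, 2.68, 0.223 and 0.502 CPM, and missed the threshold (-2.52 ± 0.65, adjusted p = 0.0691). The crypt gene OLFM4 had 197, 339, 226 and 568 CPM, so that IR 1 lay between the controls and IR 2 above both, by less than 2-fold. Of 16 crypt stem cell genes none passed by edgeR, while 2 had an unadjusted p under 0.05, a share below that of all genes, and DESeq2 called 1 higher and 1 lower. The antimicrobial enzyme LYZ had 177, 255, 117 and 435 CPM, below the controls in IR 1 and above them in IR 2.

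**Figure D3:**
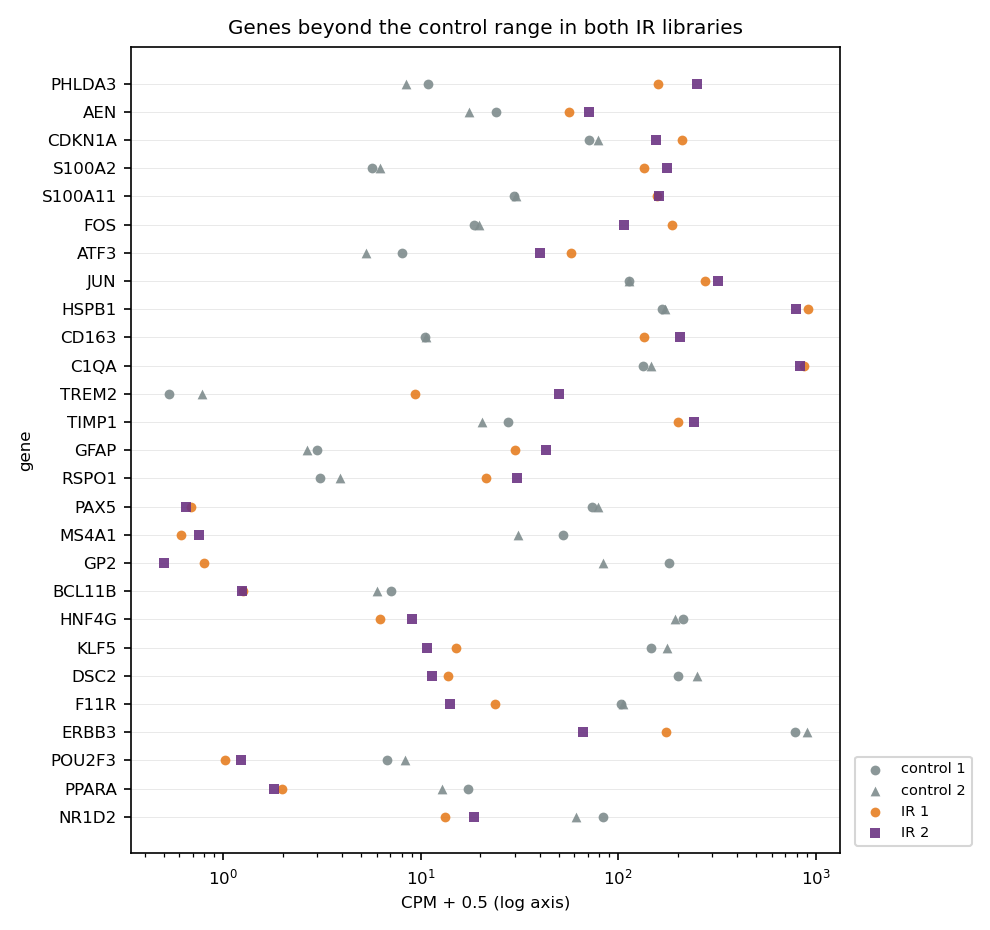
CPM plus 0.5 (log axis) is drawn for genes that lay at least 2-fold beyond the control range in both IR libraries, and for CDKN1A, which did so in IR 1 alone. Grey marks are the 2 controls, the orange circle is IR 1 and the purple square IR 2, and in each row the coloured marks lie on one side of the grey ones.

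Few genes of the metabolic lists passed. Of 21 bile acid and xenobiotic genes 1 fell and none rose. It was SULT1E1 (chromosome 8, 66811536 to 66838181), an oestrogen sulfotransferase, which fell from 366 and 384 to 7.21 and 1.48 CPM (-6.44 ± 0.84, adjusted p = 0.0370). PPARA (chromosome 5, 3302755 to 3321091), the nuclear receptor that drives fatty acid oxidation, had 16.9, 12.4, 1.49 and 1.31 CPM (-3.39 ± 0.40, adjusted p = 0.0359). In the fatty acid oxidation list 2 of 21 genes passed, PPARA among them, and the list median was 0.49 in IR 1 and -0.26 in IR 2. PPARGC1A, a coactivator of mitochondrial genes, had 22.4, 16.4, 7.13 and 7.63 CPM and missed the threshold (adjusted p = 0.0723). In the circadian clock list 2 of 19 genes fell, the repressor NR1D2 (83.6, 60.5, 12.8 and 18.2 CPM, -2.21 ± 0.36, adjusted p = 0.0391) and the activator NPAS2 (56.7, 70.7, 22.3 and 24.4 CPM, -1.45 ± 0.25, adjusted p = 0.0408). CLOCK itself had 17.9, 17.7, 4.46 and 8.07 CPM (adjusted p = 0.0645), and the time of day of sampling is not given in the labels. Of 19 iron and heme genes 2 rose, the scavenger receptor CD163 and the folate carrier SLC46A1 (5.51, 6.94, 17.3 and 15.2 CPM), and 1 fell. FLVCR1, a haem exporter, fell from 30.5 and 25.9 to 2.38 and 2.05 CPM (-3.67 ± 0.38, adjusted p = 0.0359), and SLC7A8, an amino acid exchanger, from 166 and 298 to 40.4 and 15.4 CPM. SLC7A8 and SLC46A1 were the 2 calls among 26 nutrient transporters. The calls of NPAS2 and SLC46A1 ended with library size as the only scaling, and that of SLC7A8 once the length trend was removed.

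Mitochondrially encoded transcripts had a median below the controls in each IR library, and a lower one in IR 2. Of the 13 protein genes 3 lay below the range in both libraries and 10 in IR 2 alone, and the list median was -0.83 in IR 1 and -2.54 in IR 2. The single call was ND4L, a subunit of respiratory complex I, which fell from 528 and 439 to 58.6 and 75.6 CPM (-2.85 ± 0.32, adjusted p = 0.0359). It overlaps its neighbour ND4 on the mitochondrial genome, so the counting of shared reads could affect it. ND5 had 2401, 1638, 551 and 403 CPM (adjusted p = 0.0537). Nuclear genes of oxidative phosphorylation went a different way in the 2 libraries, with a median of 0.68 in IR 1 and -0.28 in IR 2. Some of their transcripts are short, such as NDUFA4 (511 nt) and COX5B (507 nt), while SDHA has 2466 nt. The shortest group of all genes had a median of 0.53 in IR 1, and the 0.68 is given with that length trend left in. None of these 15 nuclear genes passed by edgeR, while 1 had an unadjusted p under 0.05 and DESeq2 called 1 higher and 0 lower.

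Among targets of p53, the factor that responds to DNA damage, a few genes rose and most did not pass. PHLDA3, which restrains the kinase AKT, rose from 10.4 and 7.97 to 159 and 251 CPM (4.48 ± 0.36, adjusted p = 0.0331). The nuclease AEN rose from 23.5 and 17.1 to 56.2 and 71.0 CPM (1.65 ± 0.27, adjusted p = 0.0391), the kinase PLK2 from 9.78 and 9.87 to 31.0 and 22.4 CPM (1.44 ± 0.27, adjusted p = 0.0448), and the cyclin inhibitor CDKN1A from 70.4 and 78.9 to 209 and 155 CPM (1.29 ± 0.26, adjusted p = 0.0489). These 4 of 23 made up the calls. PERP, a p53 target of cell adhesion, lay below the range in both libraries, at 165, 150, 45.9 and 4.86 CPM, and did not pass (adjusted p = 0.129). Over the list 5 genes lay above the range in both libraries and 1 below, and the list median was 0.13 in IR 1, where it turned to -0.09 with library size as the only scaling, and 0.17 in IR 2. MDM2, the p53 ubiquitin ligase that is itself a p53 target, had 15.6, 11.7, 4.33 and 27.1 CPM, below the controls in IR 1 and above them in IR 2. MGMT (chromosome 14, 138502005 to 138771543), which repairs alkylated guanine and was chosen after its values were seen, rose from 13.9 and 14.6 to 94.6 and 129 CPM (2.98 ± 0.27, adjusted p = 0.0344). Of 24 DNA repair genes none passed by edgeR, while 4 had an unadjusted p under 0.05, a share below that of all genes, and DESeq2 called 0 higher and 2 lower. In the p53 list 2 genes lay above and 2 below the range in IR 1 alone, and 1 above and 1 below it in IR 2 alone. With library size as the only scaling the calls of AEN, PLK2 and CDKN1A ended, and that of PHLDA3 held.

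Of 22 immediate early genes 6 rose and 2 fell. The AP-1 subunit FOS rose from 18.2 and 19.2 to 186 and 106 CPM (2.96 ± 0.47, adjusted p = 0.0384), JUN from 112 and 113 to 275 and 320 CPM (1.40 ± 0.25, adjusted p = 0.0423), and ATF3, a stress-induced repressor, from 7.55 and 4.76 to 57.1 and 39.8 CPM (2.98 ± 0.35, adjusted p = 0.0359). FOSL2, another AP-1 subunit, fell from 194 and 245 to 66.1 and 54.5 CPM (-1.86 ± 0.28, adjusted p = 0.0370), so members of this one family went in opposite directions. The matricellular protein CYR61, chosen after its values were seen, rose from 17.4 and 8.16 to 153 and 135 CPM (3.50 ± 0.66, adjusted p = 0.0451). Of 16 heat shock genes the small chaperones HSPB1 (167, 171, 914 and 795 CPM, 2.34 ± 0.28, adjusted p = 0.0359) and CRYAB (10.6, 12.2, 36.5 and 50.9 CPM) rose, and no larger chaperone of the list passed. In the unfolded protein response list 4 of 22 rose, ATF3 and the secretory chaperones CRELD2 (28.2, 25.3, 85.7 and 94.9 CPM), MANF (32.7, 25.6, 95.8 and 78.2 CPM) and SDF2L1. The calls of JUN, CYR61 and SDF2L1 ended under library size alone and with the length trend removed, and those of FOSL2, CRYAB and MANF under the second.

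S100A2 (chromosome 4, 96073496 to 96076825), a calcium-binding protein of stratified epithelia, headed the genes that rose when they were ranked by the ratio of the nearest IR and control libraries, among those of at least 10 CPM with a symbol other than a LOC number. It had 5.18, 5.72, 135 and 177 CPM (4.84 ± 0.28, adjusted p = 0.0243). S100A11 of the same family rose from 29.1 and 29.8 to 157 and 160 CPM (2.43 ± 0.23, adjusted p = 0.0357), with a ratio nearly the same in both IR animals. The urokinase receptor PLAUR, a protease receptor of migrating cells, rose from 6.01 and 5.16 to 17.7 and 20.5 CPM (1.77 ± 0.28, adjusted p = 0.0373), and the membrane-binding annexin ANXA5 from 60.8 and 52.8 to 190 and 349 CPM. In the list of injured and regenerating epithelium 4 of 16 rose and 1 fell. CCND1, the cyclin that starts the cell cycle, rose from 20.6 and 17.9 to 77.6 and 91.6 CPM (2.14 ± 0.32, adjusted p = 0.0370) and was the single call among 30 cell cycle genes. CRIP2, a LIM-domain protein chosen after its values were seen, was nearly even within each group. It had 34.5 and 35.4 CPM in control and 134 and 132 CPM in IR (1.93 ± 0.21, adjusted p = 0.0359). IGFBP7, an insulin-like growth factor binding protein, rose from 198 and 193 to 647 and 822 CPM, and its call ended once the length trend was removed. The calls of PLAUR and ANXA5 ended with library size as the only scaling.

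Macrophage genes formed the list with the highest share of calls. Of 24, 12 rose and none fell, against 3.39% higher over all genes, and 15 lay above the range in both libraries. The median difference was 1.79 in IR 1 and 2.58 in IR 2. CD163, the scavenger receptor for haemoglobin, rose from 10.03 and 10.2 to 134 and 206 CPM (4.07 ± 0.30, adjusted p = 0.0331), and FOLR2, a folate receptor of tissue-resident macrophages, from 8.57 and 11.6 to 47.3 and 62.6 CPM (2.45 ± 0.28, adjusted p = 0.0359). SLC11A1, a metal transporter of the phagosome, had 0.208, 0.159, 7.86 and 21.2 CPM, and the lipid receptor TREM2 had 0.0346, 0.286, 8.82 and 49.4 CPM. Controls were near 0 for SLC11A1 and TREM2, and IR 2 was higher than IR 1 by 2.7-fold and 5.6-fold. CD209, a C-type lectin of macrophages and dendritic cells, rose from 5.63 and 4.21 to 64.5 and 140 CPM (4.38 ± 0.46, adjusted p = 0.0359). A further 6 macrophage genes lay above the range in IR 2 alone, and 1 lay below it there. The call of TREM2 ended under library size alone and with the length trend removed.

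Genes of the classical complement pathway, in which C1q bound to antibody or dying cells activates C1r and C1s, rose as a set of subunits. C1QA had 134, 147, 874 and 829 CPM (2.60 ± 0.33, adjusted p = 0.0370), C1QB 209, 230, 1089 and 917 CPM (2.19 ± 0.37, adjusted p = 0.0396), and C1QC 225, 228, 1007 and 870 CPM (2.05 ± 0.34, adjusted p = 0.0391). The proteases C1R (233, 275, 952 and 883 CPM) and C1S (211, 235, 737 and 762 CPM) rose by 1.85 ± 0.30 and 1.75 ± 0.27 on the log2 scale. Across these 5 genes the IR animals differed by at most 1.19-fold. VSIG4, the complement receptor of resident macrophages, rose from 2.04 and 3.92 to 39.6 and 97.4 CPM (4.52 ± 0.65, adjusted p = 0.0370). The central component C3 had 1255, 1330, 773 and 2230 CPM and did not pass. Of 23 complement genes 9 rose and none fell.

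Other inflammatory lists had fewer calls. Of 14 neutrophil genes 3 rose, among them the phosphatase ALPL (2.48, 2.096, 16.8 and 20.6 CPM) and the Fc receptor FCGR3A (57.0, 48.3, 199.96 and 223.7 CPM), both also made by other cells. The other was S100A12, which was low everywhere, at 0.104, 0, 2.02 and 1.97 CPM (5.25 ± 1.06, adjusted p = 0.0463). Of 30 cytokines and chemokines 3 rose, including the monocyte attractant CCL2 (16.4, 10.6, 44.1 and 93.5 CPM) and the neutrophil attractant CXCL2 (1.37, 0.476, 8.19 and 8.90 CPM). Interferon response genes had 2 calls of 29, BST2 and ISG15, both higher. Of the calls in this paragraph other than S100A12, those of CCL2, CXCL2, BST2 and ISG15 ended under library size alone, and those of FCGR3A and the same 4 genes with the length trend removed.

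Genes of the muscle wall, nerves and connective tissue lay higher in both IR libraries, and higher in IR 2 than in IR 1. All 18 smooth muscle genes lay above the control range in IR 2 and 10 of them in both libraries, with medians of 1.52 in IR 1 and 2.75 in IR 2. The list summed to 8125, 16730, 44920 and 92550 CPM. ACTA2, smooth muscle actin, was the only call (237, 202, 626 and 652 CPM, 1.54 ± 0.27, adjusted p = 0.0413), and MYH11, the smooth muscle myosin, had 2252, 4815, 8857 and 26085 CPM and did not pass. In the same 4 libraries the epithelial identity list summed to 8137, 8957, 7026 and 1425 CPM. The part of the epithelial share in the stromal values was not tested.

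**Figure D4:**
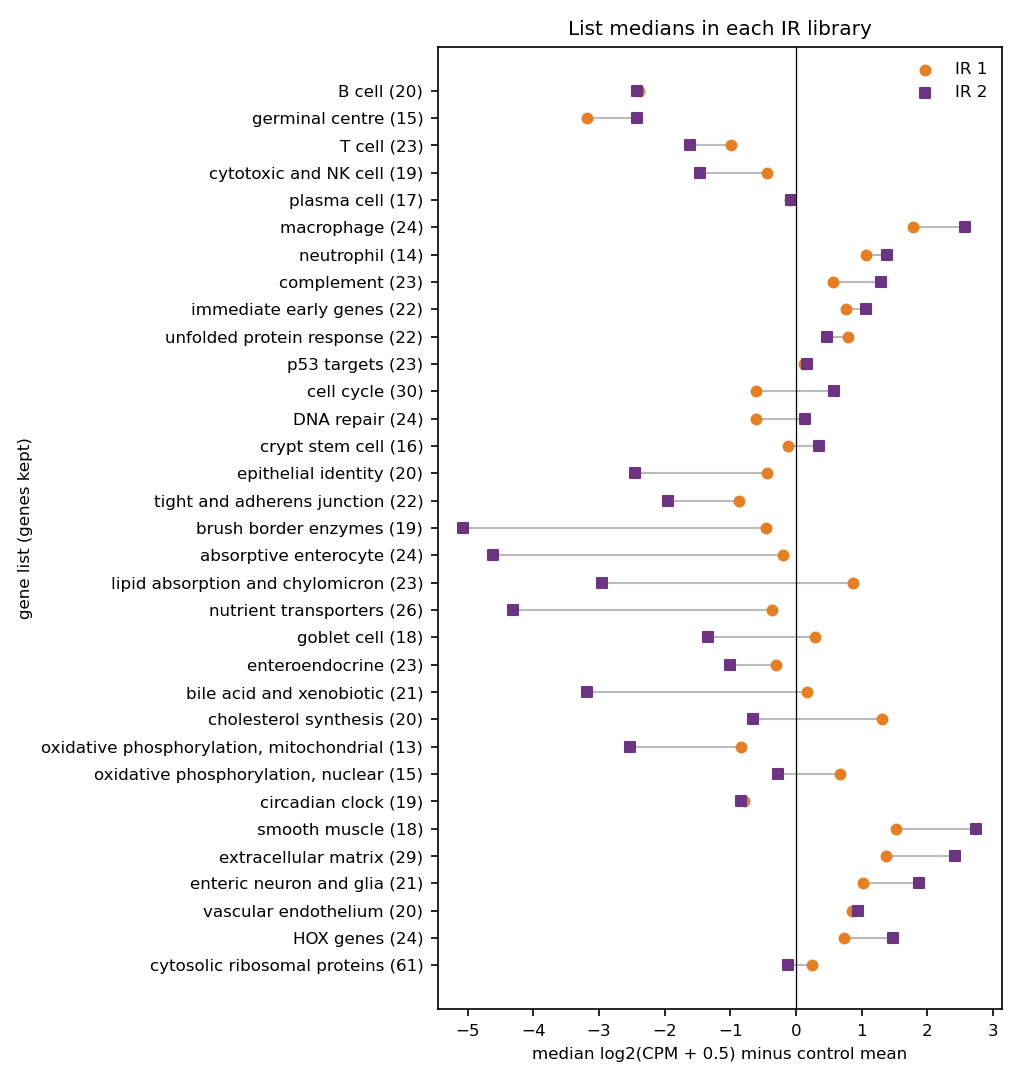
For each gene list, with the number of genes tested in brackets, the median log2 difference from the control mean is drawn for IR 1 (circle) and IR 2 (square). B cell genes are at -2.39 and -2.42, smooth muscle genes at 1.52 and 2.75, and absorptive enterocyte genes at -0.19 and -4.62.

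Extracellular matrix genes had 4 of 29 higher and none lower, with 15 above the range in both libraries. TIMP1, the inhibitor of matrix proteases, rose from 27.1 and 20.1 to 201 and 243 CPM (3.23 ± 0.28, adjusted p = 0.0331), and the proteoglycan BGN from 18.9 and 14.3 to 63.7 and 70.0 CPM (2.01 ± 0.29, adjusted p = 0.0370). The collagen cross-linking oxidases LOXL2 (29.1, 24.3, 77.6 and 145 CPM) and LOXL1 (9.87, 8.70, 24.9 and 47.8 CPM) rose as well. The collagen genes themselves did not pass: COL1A1 had 338, 683, 2532 and 8944 CPM (3.49 ± 0.83, adjusted p = 0.0613) and COL3A1 had 860, 1445, 3037 and 10461 CPM, with all IR values above both controls and IR 2 above IR 1 by 3.53-fold and 3.44-fold. CHRDL2, a bone morphogenetic protein antagonist, rose from 0.364 and 1.75 to 30.5 and 48.5 CPM (5.22 ± 0.79, adjusted p = 0.0370). C1QL4, a secreted C1q-like protein, rose from 0.606 and 1.64 to 27.6 and 24.7 CPM (4.54 ± 0.53, adjusted p = 0.0359). With library size as the only scaling the calls of LOXL1, LOXL2 and ACTA2 ended, as did those of LOXL1 and ACTA2 with the length trend removed.

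Of 21 enteric neuron and glia genes 3 rose and 1, ERBB3, which epithelium also expresses, fell. GFAP, the filament of enteric glia, rose from 2.49 and 2.14 to 29.6 and 42.8 CPM (3.97 ± 0.33, adjusted p = 0.0331). The neuronal genes UCHL1 (9.003, 12.1, 57.2 and 87.5 CPM) and PRPH (11.7, 15.4, 67.9 and 112 CPM) rose by 2.78 ± 0.33 and 2.73 ± 0.33 on the log2 scale. S100B, another glial gene, had 18.2, 23.0, 37.1 and 76.0 CPM and did not pass. Of 20 vascular genes EGFL7, an endothelial secreted factor, rose (29.7, 21.7, 77.5 and 94.2 CPM, 1.74 ± 0.26, adjusted p = 0.0370), as did the protease ADAMTS1 (10.2, 9.64, 45.2 and 62.2 CPM) and the protease inhibitor SERPINE2 (8.17, 7.33, 47.6 and 120 CPM) among 24 coagulation and endothelial activation genes, of which 5 rose. HOXB5, a patterning gene, was the 1 call of 24 HOX genes, which had medians of 0.73 in IR 1 and 1.48 in IR 2. The calls of EGFL7 and HOXB5 ended with library size as the only scaling.

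Among those that differed most between the IR animals were genes of fat absorption. FABP1 (chromosome 3, 57850511 to 57854966), the liver-type fatty acid carrier of proximal enterocytes, had 149, 91.1, 12260 and 110.0 CPM, so that IR 1 stood 82.5-fold above the next highest library and IR 2 lay inside the control range. The chylomicron apolipoproteins APOA4 (115, 217, 8929 and 12.1 CPM), APOC3 (16.02, 24.7, 3025 and 5.64 CPM) and APOA1 (3800, 4734, 21049 and 544 CPM) lay above the controls in IR 1 and below them in IR 2. C8G (4.28, 2.75, 149.6 and 3.46 CPM), SLC5A10 (2.13, 1.43, 89.6 and 2.77 CPM) and CYP2D25 (1.89, 2.38, 80.1 and 0.581 CPM) were also high in IR 1 alone. In IR 2, C8G lay inside the control range, SLC5A10 slightly above both controls and CYP2D25 below them. None of these genes passed the test.

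Cholesterol synthesis was another list that separated the animals. Of 20 genes 10 lay above the control range in IR 1 alone, and the median was 1.32 in IR 1 and -0.65 in IR 2. None passed by edgeR, while 4 had an unadjusted p under 0.05 and DESeq2 called 1 higher and 0 lower. MVD, which makes isopentenyl diphosphate, had 36.3, 24.2, 109 and 44.4 CPM, and FDPS, which makes farnesyl diphosphate, had 109, 62.2, 348 and 66.5 CPM. Secretory genes high in IR 1 alone included REG4, a lectin of endocrine and goblet cells (200.1, 165, 1171 and 111 CPM), and AGR2, a goblet cell disulfide isomerase (185, 102, 680 and 139 CPM). The mucin MUC12 had 3.74, 2.29, 81.9 and 0.264 CPM. IR 1 held REG4, AGR2 and MUC12 above the controls in the same library in which HNF4G, KLF5 and DSC2 were low. Other genes of mature epithelium were low in IR 1. Among 19 brush border enzymes, 5 lay below the range in both IR libraries and 1 in IR 1 alone. In the same list 1 lay above the range in both and 1 in IR 1 alone.

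IR 2 had little of most transcripts of the absorptive epithelium. None of 24 absorptive enterocyte genes passed by edgeR, while 4 had an unadjusted p under 0.05 and DESeq2 called 3 higher and 3 lower. Their median was -0.19 in IR 1 and -4.62 in IR 2, and that of 19 brush border enzymes was -0.46 and -5.07. The single call among these enzymes went the other way. TREH rose in both libraries, with 8.07, 2.43, 40.6 and 39.6 CPM (2.93 ± 0.57, adjusted p = 0.0461). The water channel AQP8 had 237, 192, 225 and 0.792 CPM, the metalloprotease MEP1A 1290, 1371, 716 and 7.98 CPM and the gluconeogenic enzyme PCK1 907, 2297, 1704 and 9.39 CPM. TMIGD1, an adhesion protein of the brush border, had 1059, 712, 986 and 10.5 CPM. The epithelial adhesion molecule EPCAM, found on all intestinal epithelial cells, had 754, 768, 456 and 67.9 CPM, 11.2-fold below the control mean in IR 2 and 1.67-fold in IR 1. With the length trend removed, the log2 difference of EPCAM in IR 1 moved from -0.74 to -1.16, and it lay below the range in both libraries. Sucrase-isomaltase (SI) had 3042, 2793, 911 and 37.1 CPM and aminopeptidase N (ANPEP) 12080, 13810, 3546 and 216 CPM, below the range in both libraries and lower still in IR 2. Genes of bile acid uptake in the ileum, the last part of the small intestine, were high in both controls and in IR 1. The bile acid carrier FABP6 had 12483, 6951, 21128 and 541 CPM and the bile acid transporter SLC10A2 had 135, 125, 257 and 1.91 CPM. In the list of the proximal small bowel, lactase (LCT) was low in all, at 9.76, 2.13, 0.520 and 1.11 CPM, while PCK1, given above, and the folate carrier SLC19A1 (105, 85.4, 135 and 37.2 CPM) were high in the controls and IR 1. That list summed to 1147, 2571, 1974 and 155.2 CPM and the distal list to 16090, 10490, 24690 and 817.9 CPM. Whether the bowel segment differed between libraries cannot be told apart from the exposure.

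**Figure D5:**
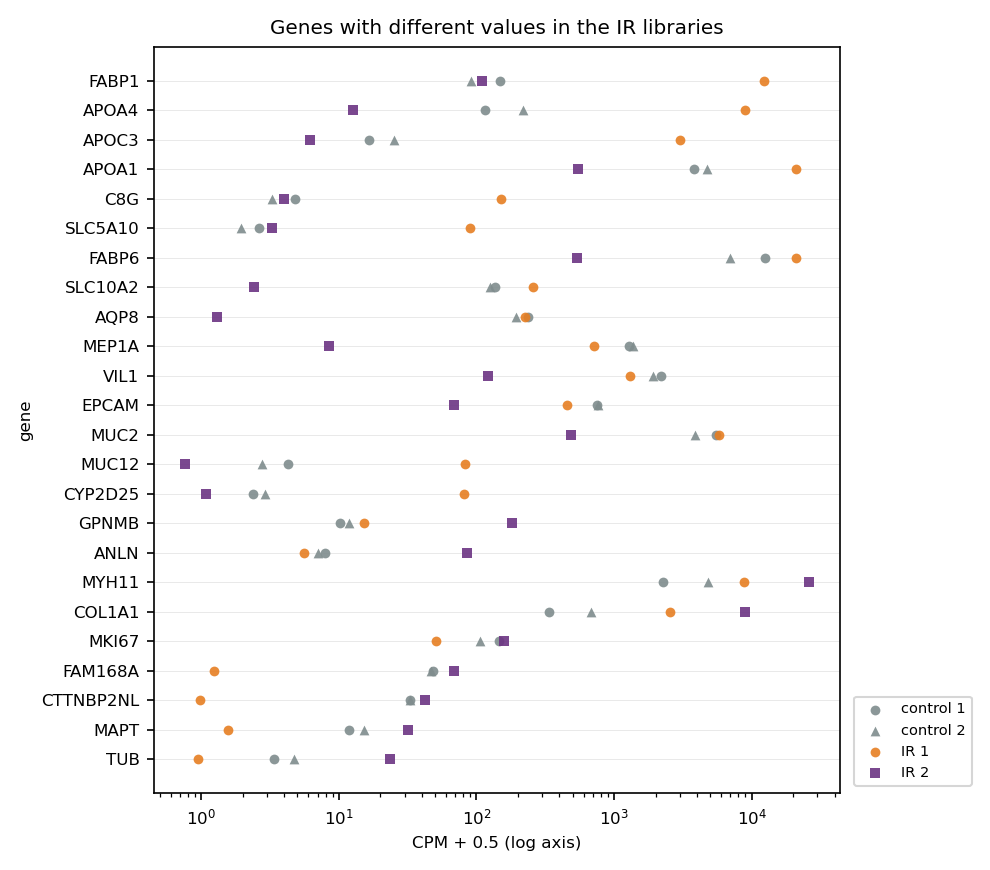
CPM plus 0.5 (log axis) is drawn for genes whose values differ between the IR libraries, with grey marks for the controls, an orange circle for IR 1 and a purple square for IR 2. The apolipoproteins and FABP1 have IR 1 to the right of all others, and AQP8, MEP1A, SLC10A2 and VIL1 have IR 2 far to the left.

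Genes above the control range in IR 2 alone included GPNMB, a lysosomal glycoprotein of macrophages (9.76, 11.4, 14.8 and 182 CPM), MYOCD, the coactivator of smooth muscle genes (1.64, 4.59, 2.02 and 23.3 CPM), and IL1RL1, the receptor for interleukin 33 (1.25, 1.94, 1.32 and 14.9 CPM). ANLN, a scaffold protein of cytokinesis, had 7.41, 6.56, 5.05 and 84.2 CPM. Cell cycle genes were split in a related way: of 30, 10 lay below the range in IR 1 alone and 2 above it in IR 2 alone, with medians of -0.60 and 0.58. The proliferation marker MKI67 had 146, 105, 50.7 and 159 CPM, so IR 1 was below both controls and IR 2 slightly above them. KIF20A, a mitotic kinesin, had 11.8, 13.1, 11.8 and 52.1 CPM. With the length trend removed, the log2 difference of MKI67 in IR 1 from the control mean moved from -1.28 to -0.58.

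Many genes below the range in IR 1 alone had long transcripts, with a median of 5406 nt in this class. FAM168A had 47.6, 46.3, 0.743 and 68.4 CPM, CTTNBP2NL 32.2, 32.2, 0.483 and 41.6 CPM, and ARHGAP31, a GTPase-activating protein, 20.3, 13.4, 0.353 and 34.7 CPM. In each of these IR 1 was near 0 and IR 2 above both controls. The nerve and photoreceptor gene TUB (2.89, 4.19, 0.446 and 22.9 CPM) and the neuronal microtubule protein MAPT (11.3, 14.8, 1.08 and 31.1 CPM) lay below the range in IR 1 and above it in IR 2. With the length trend removed, 539 of the 1015 genes (53.1%) kept this class.

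Markers of tissues outside the mucosa were checked in the same way. Of 15 skeletal muscle genes 2 rose, the fast myosins MYH2 (0.0346, 0.127, 1.75 and 3.97 CPM) and MYH1 (0.0519, 0.254, 1.80 and 3.51 CPM), and 4 lay above the range in both libraries. The other 2 were the creatine kinase CKM (38.3, 117, 325 and 383 CPM) and the glycogen phosphorylase PYGM (62.3, 179, 456 and 620 CPM), which did not pass. The troponin TNNT3 and titin (TTN) stayed under 1 CPM in all 4 libraries, and the list summed to 122.5, 320.6, 827.1 and 1033 CPM. In the adipose list FABP4, a fatty acid carrier of fat cells and vessels, rose from 0.416 and 0.826 to 7.75 and 33.2 CPM, and it was the single call of 14, of which 3 lay above the range in both libraries. The adipose list summed to 848.2, 925.4, 2002 and 1376 CPM. The calls of both myosins ended with library size as the only scaling and that of FABP4 with the length trend removed. No gene of the mesothelium, pancreatic acinar or red blood cell lists passed by edgeR (2, 2 and 4 had an unadjusted p under 0.05, and DESeq2 called 2, 0 and 2 higher and 0, 1 and 0 lower). The mesothelial marker WT1 had 0, 0, 0.241 and 0.317 CPM, and CALB2 of the same list, at 0.0866, 0.127, 1.04 and 3.17 CPM, lay above the range in both IR libraries without passing. The part of fat or muscle attached to the tissue pieces was not tested.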

How the data were processed

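RNA sequencing of small intestine from 6 minipigs, 1 library each, gave the data. Per the file headers, the deposited table holds a read count and an FPKM value per gene and library; the counts were checked to be whole numbers and used, and the deposited FPKM values served only to derive the transcript length of each gene. Per the submitters' processing notes, the authors used bcl2fastq 2.20.0, Trimmomatic, HISAT2 2.1.0 and StringTie 2.1.3b and named the builds Sscrofa11.1 and GRCh38; the counting step and its use of strand are not given in the sources used here. By Entrez ID, all 30352 rows with a symbol were found in the RefSeq annotation of Sscrofa11.1, which gives the coordinates. The other 24 rows, 0.00906% to 0.0385% of counts, were left out. Totals for all 6 libraries ran from 48600424 to 73975174.

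In R 4.3.3 with edgeR 4.0.16, filterByExpr by group kept 18197 genes, TMM factors were used, and 1 quasi-likelihood fit (two-sided F test) with a term per group took all 6 libraries. Its 3 residual degrees of freedom and common biological coefficient of variation of 0.431 limit its precision. The adjustment was by Benjamini-Hochberg over all genes, with an adjusted p of 0.05 as the threshold, and SE was derived from F. With n = 2 per group, p-values measure only the spread between these animals. For the classes, 0.5 was added to CPM and a 2-fold margin beyond the nearer control was required. The length trend was removed with a loess curve of span 0.5.

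Genes were named by a rule: the 10 highest and 10 lowest shared genes past the threshold by the nearest pair of libraries, 5 genes of each split class by the ratio of the IR libraries (at least 10 CPM, no LOC symbol), up to 4 members of each of 62 lists by p and 2 by level, and a fixed set including CDKN1A, MDM2, LGR5 and EPCAM; exceptions are stated, and a few genes the rule named are not reported here. The members, the rule and the lists were chosen with earlier results of these data known, so no list is independent evidence. Alternatives included DESeq2 1.42.0, limma 3.58.1 (voom), other scalings, filters, folds and thresholds, a replicate block and leaving out each library. The test and the classes were checked on simulated data.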

Additional observations from a re-analysis of the deposited data

How the results depend on the processing

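The count of genes past the threshold was 1103. It was between 790 and 1249 with limma voom, DESeq2 size factors, no filter, a 5 CPM filter, the length trend removed, and the earlier edgeR quasi-likelihood method, which was added after seeing the data. It was 4131 with DESeq2 and 3452 at an adjusted p under 0.1. With library size as the only scaling it was 475, of which 182 (38.3%) were higher, against 55.8% with TMM; that scaling moved the median of all genes from -0.03 to -0.19 in IR 1. It was 0 in a fit of the 4 control and IR libraries alone, which has fewer degrees of freedom, and between 0 and 5342 when 1 library was left out. With the replicate number as a block the count was also 0. The numbers share no animal. The correlation of same-numbered deviations was 0.0812 between control and IR, -0.11 between control and IR_Pra and -0.0909 between IR and IR_Pra. With 2 libraries per group these values cannot show whether libraries of the same number shared a processing step.

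Of 119 genes whose test is described, TREH and S100A12 not counted, 101 had passed. Of these 30 were lost with library size alone, 25 with the length trend removed, 15 with the earlier edgeR method, 15 with limma voom, 11 with no filter and 0 with DESeq2, and no sign turned among the 119 in any of these fits. All 101 were lost in the fit of the 4 control and IR libraries alone and with the replicate block.

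The shared class above the range (1004) became 2108 at 1.5-fold and 112 at 4-fold, and ran from 1347 to 2630 with 1 library left out. The class below (912) became 2007 and 162, and ran from 1272 to 2347. These follow from a looser or stricter rule. With library size alone, IR 1 alone had 298 genes above and 1553 below, and with the length trend removed 355 and 663. At 4-fold, IR 1 alone had 107 above and 214 below, IR 2 alone 526 and 704, and the opposite classes 9 and 1. Among the list medians, taken for each list and IR library, 14 moved and 110 stayed the same with the length trend removed. The counts were the same with library size alone. A shift smaller than the spread between the IR medians of a list counted as the same, so lists that split the IR libraries seldom moved. The cause of these moves was not tested further.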

Other observations

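Of 21 genes of programmed cell death tested, none passed by edgeR, 8 had an unadjusted p under 0.05, against 30.2% of all genes, and DESeq2 called 0 higher and 5 lower. APAF1, the scaffold of the apoptosome, had 27.6, 37.1, 14.6 and 12.9 CPM in control 1, control 2, IR 1 and IR 2 (adjusted p = 0.0522), and its partner protease CASP9 had 25.0, 23.8, 9.75 and 10.2 CPM (adjusted p = 0.0531). BIRC3, an inhibitor of apoptosis induced by NF-kappaB, had 239.8, 111, 44.1 and 48.2 CPM.

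Oxidative stress genes had no edgeR call among 21, 8 with an unadjusted p under 0.05 (30.2% over all genes), and 5 higher and 2 lower with DESeq2. GPX1, the glutathione peroxidase of the cytosol, had 230.05, 138, 569.6 and 555 CPM, and GCLC, which starts glutathione synthesis, had 41.8, 36.3, 20.8 and 21.1 CPM. Both IR animals lay on the same side of the controls for each. The chloride channel CFTR of crypt epithelium had 79.7, 95.2, 19.2 and 4.81 CPM. Of 61 cytosolic ribosomal protein genes 60 stayed within 2-fold of the control range in both IR libraries, and none passed by edgeR, while 2 had an unadjusted p under 0.05 and DESeq2 called 2 higher. Haemoglobin beta (HBB) had 7.74, 13.2, 17.9 and 86.4 CPM.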
